A study of Homo sapiens with 12 samples.

Results

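Transcripts of the Wnt ligands, their receptors and co-receptors, their secreted antagonists and a few pathway feedback genes were followed in 12 tumours grown in mice from H3122 cells. The set held every gene on the array whose symbol began with WNT, FZD, SFRP or DKK followed by a digit, together with LRP5, LRP6, LGR4, LGR5, LGR6, AXIN2, LEF1, RNF43 and ZNRF3. These were 47 of the 20046 gene symbols that the array's probes name, on 66 probes. TCF7, the remaining gene of the rule, was named by no probe used and was not analysed here. FZD4-DT entered by its symbol alone: it is a noncoding transcript that starts beside FZD4 and runs away from it.

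H3122 is a human lung adenocarcinoma line that carries an EML4-ALK fusion, and ceritinib is an inhibitor of the ALK kinase. All 12 tumours were xenografts of this line. There were 2 control tumours, 4 tumours treated with ceritinib at 75 mg/kg, 3 at 87.5 mg/kg and 3 at 100 mg/kg, and by the study's design the treated tumours first shrank and later grew resistant. No tumour is labelled as treated but not yet resistant, so an effect of the drug and an effect of resistance cannot be told apart. The labels give neither the host strain nor the number of mice behind the tumours, and p-values measure only the spread between these tumours. In a bulk tumour sample, fewer cells of a type and less RNA per cell cannot be told apart.

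Wnt proteins are secreted lipid-modified ligands that bind Frizzled receptors and the co-receptors LRP5 and LRP6. Binding stops the destruction complex built on APC and axin, so that beta-catenin accumulates, enters the nucleus and acts with TCF and LEF factors on target genes. Secreted frizzled-related proteins bind the ligands, Dickkopf proteins bind the co-receptors, and the membrane ubiquitin ligases RNF43 and ZNRF3 remove Frizzled from the cell surface unless R-spondins, acting through LGR4, LGR5 or LGR6, block them. AXIN2, RNF43, ZNRF3, LEF1 and DKK1 are all known as transcriptional targets of the pathway as well as parts of it. In the lung, Wnt signals are known for their roles in the development and renewal of the alveolar epithelium.

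The promoters of DKK1, WNT4 and RNF43 are shown because these genes differed between control and treated tumours and play 3 roles: antagonist, ligand and feedback ligase. The RefSeq windows, on GRCh38.p14, run from 250 bases before the transcription start to 50 bases after it, written 5′ to 3′ on the gene's strand. They are chr10:52314031-52314330 on the plus strand for DKK1, chr1:22143048-22143347 on the minus strand for WNT4, and chr17:58417485-58417784 on the minus strand for 1 of the RNF43 windows. Capitals mark a match to CTTTG followed by an A or T in each of the next 2 positions, on either strand, the core letters bound by TCF and LEF factors.
DKK1: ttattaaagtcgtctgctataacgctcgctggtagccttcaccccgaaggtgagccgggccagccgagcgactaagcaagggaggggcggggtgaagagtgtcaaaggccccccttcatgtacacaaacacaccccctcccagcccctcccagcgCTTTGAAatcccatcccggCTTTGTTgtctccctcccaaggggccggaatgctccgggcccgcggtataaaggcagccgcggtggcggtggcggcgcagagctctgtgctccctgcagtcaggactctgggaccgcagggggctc
WNT4: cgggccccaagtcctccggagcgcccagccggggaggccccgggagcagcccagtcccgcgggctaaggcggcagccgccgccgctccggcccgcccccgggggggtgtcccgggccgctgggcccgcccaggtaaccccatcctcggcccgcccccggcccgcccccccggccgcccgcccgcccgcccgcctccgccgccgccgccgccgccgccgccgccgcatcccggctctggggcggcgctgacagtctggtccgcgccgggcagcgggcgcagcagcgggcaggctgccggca
RNF43: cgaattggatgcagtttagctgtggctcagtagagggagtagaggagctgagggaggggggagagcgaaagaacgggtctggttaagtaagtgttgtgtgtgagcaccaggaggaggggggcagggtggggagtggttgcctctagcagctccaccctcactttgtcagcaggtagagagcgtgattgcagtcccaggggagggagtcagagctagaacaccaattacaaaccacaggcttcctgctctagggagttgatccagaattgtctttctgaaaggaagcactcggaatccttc
In the DKK1 window the matches began 95 and 76 bases before the start, and 1.58% of all 35116 RefSeq windows of this length held at least 2 matches. The WNT4 window held no match and was 85.7% G and C, against a median of 58.7% over all windows, and the RNF43 window held no match and was 54.3% G and C. Of the 31 members with an entry, in 37 windows, DKK1 and WNT3 had a match, while 13.8% of all windows held one. AXIN2, ZNRF3 and WNT7B are named only.

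Messenger RNA was read on Illumina bead arrays as 1 brightness per probe with a detection p-value, and levels are given as background-corrected, quantile-normalized log2 signals. A gene counted as detected in a tumour when a probe's detection p was under 0.01, and it was tested when its probe was detected in at least 2 tumours. Arrays detected 38% to 41.2% of their 47323 probes, and from 17 to 21 members each. The first principal component, with 41.9% of the variance, held the controls at -54.3 and -52.8 and the treated tumours between -10.1 and 29.9. Replicate 2 at 87.5 mg/kg stood apart on the second, at 39.7 against -25.9 to 18.9 for the others. Without it, 8 members differed between treated and control tumours in place of 7. Of 12 H3122 epithelial and lineage markers, 11 were detected in all 12 tumours and KRT18 in both controls and 1 treated tumour. The log2 of their summed signal, in which the brightest genes weigh most, was 17.41 to 17.57 in controls and 17.06 to 17.34 in treated tumours. Against the controls 6 of the 12 passed, or 50%, beside 18.8% of all genes tested by limma at an adjusted p under 0.05. SFTPB, a surfactant protein, was 23.3-fold higher and NKX2-1, a lung lineage factor, 1.63-fold higher. MUC1 was 3.12-fold, KRT7 2.02-fold, KRT19 1.56-fold and CDH1 1.51-fold lower. Of 18 stromal, endothelial and macrophage markers, COL3A1, PDGFRA, PDGFRB, RGS5, PTPRC and CSF1R were detected in no tumour. For the 11 that could be tested, the log2 of the summed signal was 12.58 to 13.12 in controls, 13.05 to 13.36 at 75 mg/kg, 12.90 to 13.22 at 87.5 mg/kg and 12.75 to 12.94 at 100 mg/kg. Among these 11 markers 5 passed, or 45.5%: CD163 and VWF were higher in treated tumours and LUM, COL1A1 and COL1A2 lower. The probes name human genes and the tumours grew in mice. Whether these signals came from host or tumour cells therefore cannot be told, and they do not measure the amount of host cells. The part of these markers in the results below was not tested.

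Few Wnt ligands, and none of SFRP1, SFRP2, SFRP4 and SFRP5, reached the detection limit in more than 1 tumour. Of the 47 members, 24 were tested, 20 were detected in no tumour, and DKK2, FZD9 and SFRP1 were detected in 1 tumour each. Those detected in no tumour were WNT1, WNT2, WNT2B, WNT3A, WNT6, WNT7A, WNT8A, WNT8B, WNT9A, WNT9B, WNT10A, WNT10B, WNT11, WNT16, FZD10, SFRP2, SFRP4, SFRP5, DKK4 and LGR5. For these genes the arrays set only a bound, and a dim probe does not show that the transcript was absent. At a detection p under 0.05, 29 members could be tested. WNT7A was among them, with signals of 5.88 and 5.85 in controls, where its detection p was 0.0221 and 0.0156. In treated tumours WNT7A lay at 4.86 to 5.35. It missed the filter used here, so no p-value is given for it. The 13 members detected in all 12 tumours were WNT5B, FZD1, FZD2, FZD3, FZD4, FZD6, FZD7, FZD8, LRP5, AXIN2, LEF1, RNF43 and ZNRF3.

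**Figure D1:**
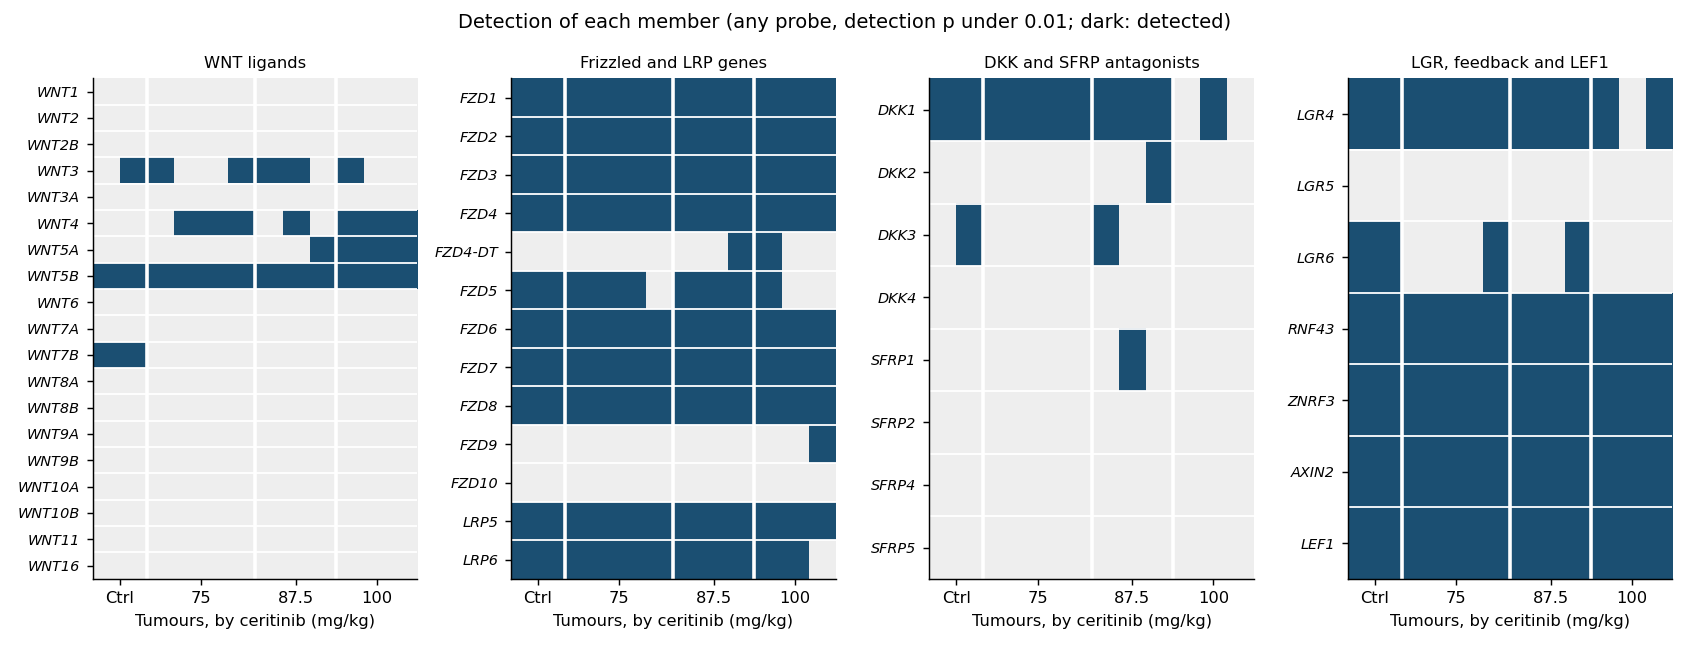
Detection of each member by any of its probes. Rows are members, columns are the 12 tumours grouped as control, 75, 87.5 and 100 mg/kg ceritinib, and dark cells are detected at p under 0.01. Between 17 and 21 members were detected per tumour. WNT7B was detected in the controls only, and WNT4, WNT5A, FZD4-DT, DKK2, FZD9 and SFRP1 in treated tumours only.

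Averaged over the 3 doses, treated tumours held more AXIN2, RNF43, ZNRF3 and WNT4 and less DKK1, LRP5 and WNT7B than the controls. These were 7 of the 24 tested members, or 29.2%, against 18.8% of all 12300 genes tested by limma at an adjusted p under 0.05. The 4 higher members made up 16.7%, against 9.88% of all genes higher, and the 3 lower ones 12.5%, against 8.97% lower. The median log2 difference was -0.08 over the tested members and 0.02 over all genes. Since a dim gene could pass the filter through the group where it was bright, and the set was chosen with results known, these shares describe the members and support nothing further. In each of the 10 treated tumours AXIN2, RNF43, ZNRF3 and WNT4 exceeded the higher control, and DKK1 and WNT7B fell short of the lower one, so that 6 of the 24 did not overlap. Among all genes 11.5% lay wholly above the controls and 11% wholly below them, or 22.5% in either direction.

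**Figure D2:**
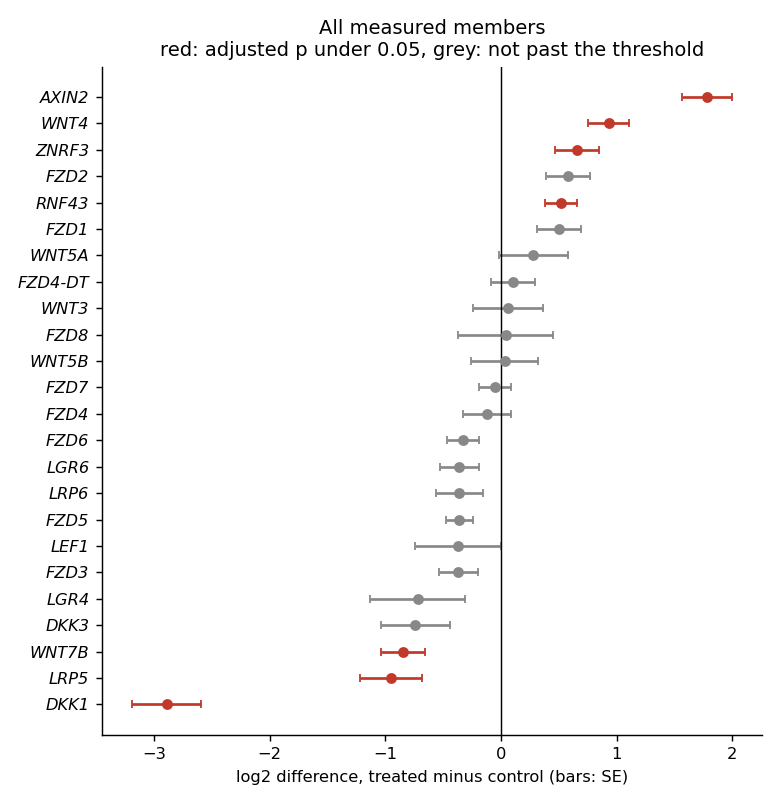
Log2 difference, mean of the 3 ceritinib doses minus control, for the 24 tested members. Points are limma estimates, bars are 1 standard error, and red marks an adjusted p under 0.05. AXIN2 at 1.78 and DKK1 at -2.89 lie at the ends.

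Among the ligands, WNT4 was higher and WNT7B lower in treated tumours, and both were dim. WNT4, a ligand known from kidney and female reproductive tract development, had log2 signals of 5.52 and 5.36 in controls, 6.04, 6.78, 6.41 and 6.35 at 75 mg/kg, 5.75, 6.25 and 6.01 at 87.5 mg/kg and 6.56, 6.87 and 6.73 at 100 mg/kg. It was not detected in either control, and it was detected in 3 of 4, 1 of 3 and 3 of 3 treated tumours in order of dose. Every treated tumour lay above both controls. The fitted log2 difference was 0.93 (SE 0.18, limma adjusted p = 0.00423). As the controls gave only a bound, WNT4 was at least 1.56-fold higher at 100 mg/kg, where every tumour was detected. The same calculation gave 1.23-fold over all treated tumours and 1.25-fold at 75 mg/kg. Undetected treated tumours entered those means with their own signals, so WNT4 has no strict bound there. Without control replicate 2 its adjusted p was 0.0585.

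WNT7B, a ligand known for its role in lung and vascular development, went the other way. Its signals were 6.39 and 6.51 in controls, 5.58, 5.10, 5.85 and 5.65 at 75 mg/kg, 5.87, 5.62 and 5.65 at 87.5 mg/kg and 5.18, 5.78 and 5.63 at 100 mg/kg. It was detected in both controls and in none of the 10 treated tumours, so it was tested only because of the controls, and the groups did not overlap. Its log2 difference was -0.85 (SE 0.19, limma adjusted p = 0.00976), at least 1.26-fold lower in treated tumours. A second WNT7B probe was detected in no tumour.

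WNT5A, best known for signalling independent of beta-catenin, was detected in all 3 tumours at 100 mg/kg, in 1 of 3 at 87.5 mg/kg and in none of the controls or the 75 mg/kg tumours. The values were 5.71 and 5.52 in controls, 5.53, 5.72, 5.85 and 5.44 at 75 mg/kg, 5.59, 5.11 and 6.72 at 87.5 mg/kg and 6.12, 6.27 and 6.36 at 100 mg/kg. At 100 mg/kg all 3 tumours lay above both controls, at least 1.13-fold, but the limma adjusted p was 0.225 (0.027 without replicate 3 at 87.5 mg/kg, which held the highest value), and over all doses the log2 difference was 0.28 (SE 0.30, adjusted p = 0.556). WNT5B, its close relative, was detected in all 12 tumours at 7.05 and 7.07 in controls and 6.43 to 7.93 in treated tumours, a log2 difference of 0.03. WNT3, a ligand of the beta-catenin branch, was detected in 1 control and 5 treated tumours, at 5.53 and 6.41 in controls and 5.35 to 6.64 in treated ones, with a log2 difference of 0.06. The controls lay inside the treated range for both.

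No Frizzled receptor passed the test over the mean of the doses, although 8 of the 10 on the array could be tested. Nearest by limma were FZD2 (log2 difference 0.58, adjusted p = 0.0531), FZD5 (-0.36, 0.0648) and FZD1 (0.50, 0.0941). Among 23 refits each, FZD2 and FZD5 passed in 4 and FZD6 in 2, so some receptors lay near the threshold. FZD6, a Frizzled known for planar polarity, had 10.65 and 10.60 in controls, 10.34, 10.36, 10.46 and 10.28 at 75 mg/kg, 9.98, 10.31 and 10.25 at 87.5 mg/kg and 10.31, 10.05 and 10.66 at 100 mg/kg. All but 1 treated tumour lay below both controls, and the log2 difference was -0.33 (SE 0.14, limma adjusted p = 0.134). FZD3, also known for planar polarity, had 8.22 and 7.69 in controls and 7.32 to 7.88 in treated tumours (log2 difference -0.37, adjusted p = 0.154). FZD4 lay at 7.50 and 6.91 in controls and 6.64 to 7.54 in treated tumours, FZD7 at 7.49 and 7.81 against 7.31 to 7.89, and FZD8 at 7.83 and 7.77 against 7.02 to 9.0. These 3 receptors had log2 differences of -0.12, -0.05 and 0.04, and their groups overlapped. A second FZD7 probe, detected in 7 tumours, had means of 6.16 in controls, 5.94 at 75 mg/kg, 6.58 at 87.5 mg/kg and 6.41 at 100 mg/kg. It was not tested by itself. FZD4-DT was detected in 2 treated tumours and no control, with a log2 difference of 0.10.

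FZD1, FZD2 and FZD5, receptors for several Wnt ligands, passed against the controls at 1 or 2 of the doses. FZD1 had 9.09 and 8.67 in controls, 9.09, 9.08, 9.64 and 9.59 at 75 mg/kg, 8.98, 8.95 and 9.37 at 87.5 mg/kg and 9.75, 9.79 and 9.47 at 100 mg/kg. It was higher at 100 mg/kg, where no tumour overlapped the controls, by a log2 of 0.79 (SE 0.22, limma adjusted p = 0.0265). A second FZD1 probe, detected in all 12 tumours, had means of 7.71 in controls, 7.89 at 75 mg/kg, 7.48 at 87.5 mg/kg and 8.36 at 100 mg/kg. It was not tested by itself. FZD2 had 6.96 and 6.76 in controls, 6.93, 7.27, 6.69 and 7.19 at 75 mg/kg, 7.81, 8.04 and 7.38 at 87.5 mg/kg and 7.31, 7.70 and 7.64 at 100 mg/kg. FZD2 was higher at 87.5 mg/kg by 0.89 (SE 0.22, adjusted p = 0.0397) and at 100 mg/kg by 0.69 (SE 0.22, adjusted p = 0.0452), while at 75 mg/kg it overlapped the controls with a difference of 0.16 (adjusted p = 0.655). FZD5 had 6.79 and 6.55 in controls, 6.26, 6.15, 6.27 and 6.06 at 75 mg/kg, 6.64, 6.84 and 6.50 at 87.5 mg/kg and 6.21, 6.11 and 5.89 at 100 mg/kg. FZD5 was lower at 75 mg/kg (log2 difference -0.48, adjusted p = 0.0398) and at 100 mg/kg (-0.60, adjusted p = 0.0138) and straddled the controls at 87.5 mg/kg (-0.01, adjusted p = 0.984). These calls were fragile: leaving out single tumours ended that of FZD1 in 3 cases (control replicate 2, adjusted p = 0.202, and replicates 1 and 2 at 100 mg/kg, 0.0693 and 0.0754), those of FZD2 in 7 cases at each dose (up to 0.185 and 0.216, both without control replicate 2), and that of FZD5 at 75 mg/kg in 8 cases (up to 0.32, without control replicate 1). The FZD5 call at 100 mg/kg was lost without control replicate 1 (0.126).

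The co-receptor LRP5 was lower in treated tumours and LRP6 passed the test at 100 mg/kg. LRP5 had 13.46 and 12.49 in controls, 12.23, 12.05, 11.71 and 11.74 at 75 mg/kg, 12.27, 11.66 and 12.69 at 87.5 mg/kg and 11.95, 11.93 and 11.88 at 100 mg/kg. The log2 difference was -0.95 (SE 0.27, limma adjusted p = 0.0287), 1.94-fold lower, from a mean of 12.98 ± 0.68 (SD, n = 2) to one of 12.01 ± 0.31 (SD, n = 10), with 1 treated tumour inside the control range. A second LRP5 probe, at 8.43 and 9.19 in controls and 7.43 to 8.58 in treated tumours, moved by -0.92. Without control replicate 1 the LRP5 difference was -0.47 (adjusted p = 0.425), so the call rested on that tumour. LRP6 had 6.94 and 7.18 in controls, 7.23, 6.69, 6.82 and 6.53 at 75 mg/kg, 6.95, 6.91 and 7.09 at 87.5 mg/kg and 6.36, 6.66 and 5.89 at 100 mg/kg. At 100 mg/kg every tumour lay below both controls, by a log2 of -0.76 (SE 0.23, adjusted p = 0.038). That p was 0.0927 without control replicate 1, 0.202 without control replicate 2, 0.0707 without replicate 1 and 0.103 without replicate 3 at 100 mg/kg, 0.05 without replicate 3 of the 75 mg/kg group, and 0.0503 without the first 87.5 mg/kg tumour.

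DKK1, the secreted antagonist that binds LRP5 and LRP6, had the largest fitted difference of the tested members. Its signals were 9.5 and 9.62 in controls, 7.32, 6.96, 6.2 and 6.71 at 75 mg/kg, 6.62, 6.98 and 7.82 at 87.5 mg/kg and 5.93, 6.34 and 6.02 at 100 mg/kg. The groups lay far apart, and DKK1 was still detected in 8 of the 10 treated tumours and in 1 of the 3 at 100 mg/kg. From a mean of 9.56 ± 0.08 (SD, n = 2) it fell to 6.69 ± 0.60 (SD, n = 10), a log2 difference of -2.89 (SE 0.30, limma adjusted p = 0.000105) or 7.39-fold. Not every treated tumour was detected, so this fold is approximate. Over 23 refits the log2 difference ran from -3.04 to -2.06. A second DKK1 probe was detected in no tumour. DKK3, a family member whose link to Wnt signalling is less clear, was detected in 1 control and 1 treated tumour, at 5.56 and 6.30 in controls and 4.64 to 6.06 in treated tumours, with a log2 difference of -0.74 (SE 0.30, adjusted p = 0.11).

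Of the 4 feedback and nuclear genes, AXIN2, RNF43 and ZNRF3 were higher in treated tumours and LEF1 did not pass. AXIN2, a relative of axin that scaffolds the destruction complex, differed most. It had 7.77 and 7.24 in controls, 9.5, 9.19, 9.45 and 9.54 at 75 mg/kg, 8.77, 8.43 and 9.23 at 87.5 mg/kg and 9.66, 9.93 and 9.26 at 100 mg/kg. No treated tumour overlapped the controls, and the 87.5 mg/kg tumours held the 2 lowest treated values. Its mean was 7.50 ± 0.38 (SD, n = 2) in controls and 9.30 ± 0.44 (SD, n = 10) in treated tumours, a log2 difference of 1.78 (SE 0.22, limma adjusted p = 0.000299) or 3.43-fold.

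RNF43 and ZNRF3, the ligases that remove Frizzled, rose by smaller fitted differences. RNF43 had 8.02 and 8.44 in controls, 8.59, 8.97, 8.70 and 8.65 at 75 mg/kg, 8.62, 8.56 and 8.75 at 87.5 mg/kg and 8.67, 9.05 and 8.95 at 100 mg/kg, a log2 difference of 0.52 (SE 0.14, limma adjusted p = 0.0275) or 1.44-fold. ZNRF3 had 8.13 and 7.90 in controls, 8.42, 8.5, 8.79 and 8.70 at 75 mg/kg, 8.16, 8.73 and 8.24 at 87.5 mg/kg and 9.11, 8.65 and 9.33 at 100 mg/kg, a log2 difference of 0.66 (SE 0.19, adjusted p = 0.0324) or 1.57-fold. Both lay above the controls in every treated tumour, by narrow margins in the lowest of them. The calls were near the threshold: without control replicate 1 the adjusted p was 0.37 for RNF43 and 0.121 for ZNRF3, without control replicate 2 it was 0.238 for ZNRF3, and the ZNRF3 value was 0.051 without replicate 4 at 75 mg/kg and 0.0522 without replicate 1 at 100 mg/kg. With all treated tumours fitted as 1 group it was 0.0982 for ZNRF3. With the arrays scaled to 1 median, where the median of all genes lay at -0.11, RNF43 was 0.50 and ZNRF3 0.63 above that median (adjusted p = 0.0797 and 0.0989).

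Neither LEF1 nor the R-spondin receptors passed the test. LEF1, a nuclear partner of beta-catenin, lay at 7.70 and 7.24 in controls and 6.53 to 7.91 in treated tumours, with a log2 difference of -0.37 (SE 0.37, limma adjusted p = 0.534), and its second probe differed by -0.73. LGR4 had 7.86 and 7.38 in controls and 5.66 to 7.69 in treated tumours and was not detected in replicate 2 at 100 mg/kg; its log2 difference was -0.72 (SE 0.41, adjusted p = 0.252). LGR6 was detected in both controls and 2 treated tumours, at 6.62 and 6.06 in controls and 5.69 to 6.37 in treated tumours (log2 difference -0.36, adjusted p = 0.174). LGR5, the stem cell marker of the intestine, was not detected in any tumour.

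**Figure D3:**
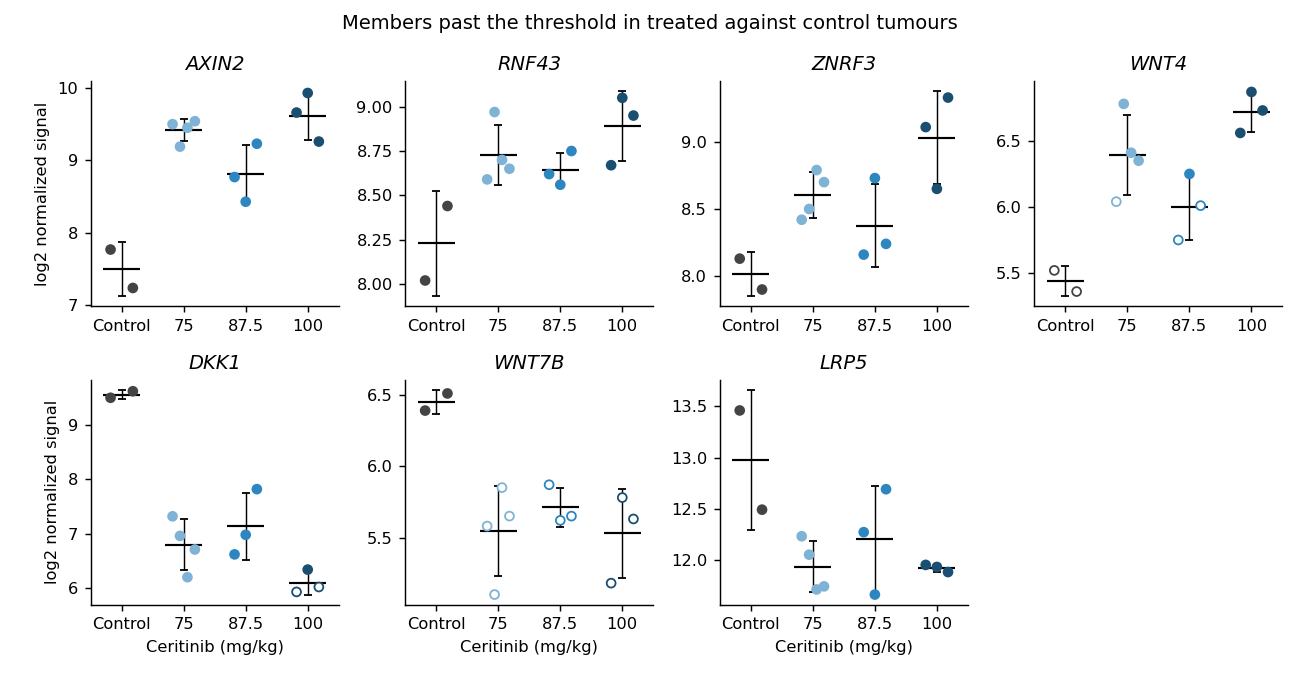
Log2 signal of the 7 members past the threshold over the mean of the 3 doses against the controls, by group. Points are tumours, filled where detected and open where not, horizontal bars are means and error bars the SD. AXIN2 sits at 7.24 and 7.77 in controls and 8.43 to 9.93 in treated tumours, and DKK1 falls from 9.5 and 9.62 to between 5.93 and 7.82.

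**Figure D4:**
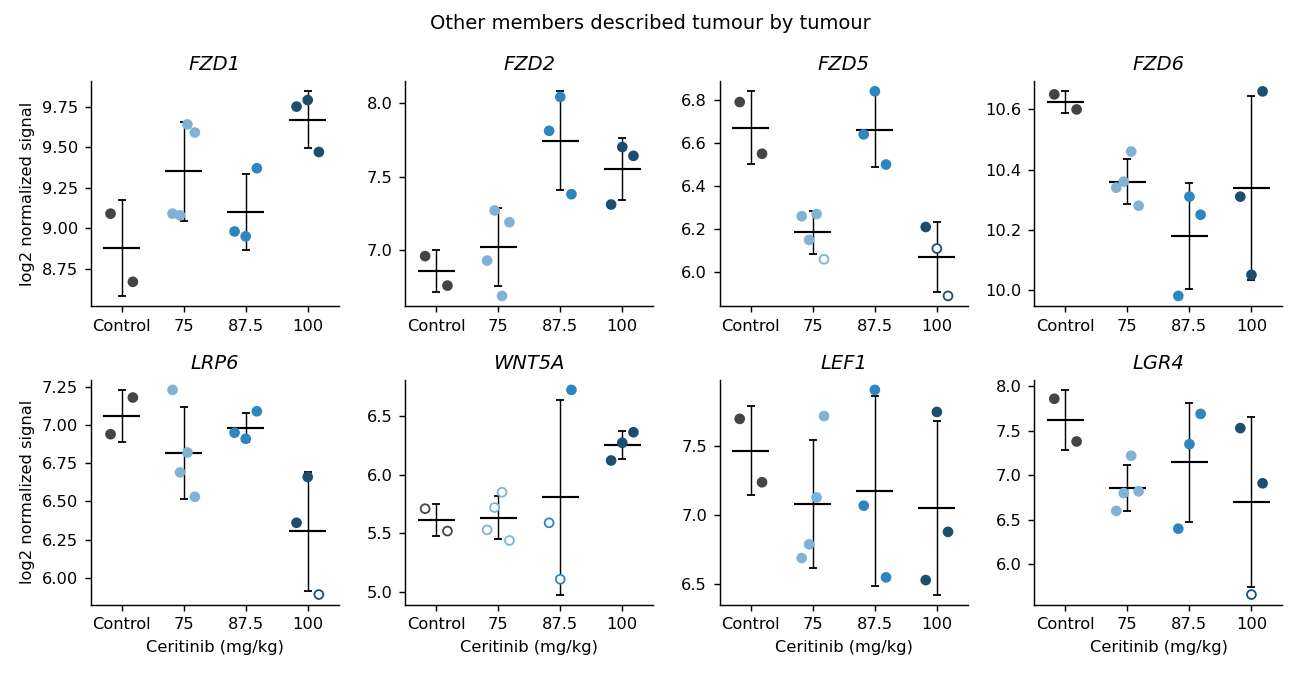
Log2 signal of FZD1, FZD2, FZD5, FZD6, LRP6, WNT5A, LEF1 and LGR4, in the same layout. In the main fit FZD1, FZD2, FZD5 and LRP6 passed the threshold against the controls at some of the doses, and the other genes shown passed in no comparison. LEF1 overlaps, at 7.24 and 7.70 in controls and 6.53 to 7.91 in treated tumours.

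Taken dose by dose, AXIN2 and DKK1 were the members that passed at all 3 doses. Each dose was set against the same 2 controls, so the 3 comparisons share their control error. At 75 mg/kg 6 of the 24 tested members passed, 2 higher and 4 lower, against 14.5% of all genes (7.37% higher and 7.13% lower). At 87.5 mg/kg 3 passed, 2 higher and 1 lower, against 6.18% (3.25% and 2.93%). At 100 mg/kg 11 passed, 6 higher and 5 lower, against 22.1% (11.9% and 10.2%). Median log2 differences of the members were -0.22, 0.00 and -0.16 in dose order, and those of all genes 0.00, 0.01 and 0.04. AXIN2 was higher by a log2 of 1.92 (adjusted p = 0.000511), 1.31 (0.0134) and 2.11 (0.000261), and DKK1 differed by -2.77 (0.000361), -2.42 (0.0024) and -3.46 (8.81e-05), by limma. AXIN2 at 87.5 mg/kg had an adjusted p of 0.108 without control replicate 2, and 0.11 when only that dose and the controls were fitted. WNT4 was higher by a log2 of 0.95 at 75 mg/kg (adjusted p = 0.0085) and 1.28 at 100 mg/kg (0.00152), and at 87.5 mg/kg its value was 0.56 (0.142). WNT7B was lower at 75 and 100 mg/kg (log2 differences of -0.90 and -0.92, adjusted p = 0.0155 and 0.013), with -0.73 at 87.5 mg/kg (0.0788). RNF43 and ZNRF3 passed at 100 mg/kg (0.66 and 1.02, adjusted p = 0.0178 and 0.00769). LRP5 passed at 75 and 100 mg/kg (-1.04 and -1.05, adjusted p = 0.0384 and 0.0334). Without control replicate 1 the adjusted p was 0.0544 for WNT4 at 75 mg/kg, 0.18 for RNF43 at 100 mg/kg, and 0.406 and 0.305 for LRP5 at 75 and 100 mg/kg. Without control replicate 2 it was 0.0707 for WNT4 at 75 mg/kg and 0.0695 for ZNRF3 at 100 mg/kg. The RNF43 call at 100 mg/kg was also lost without replicate 2 of that dose (0.0588). The LRP5 call at 75 mg/kg was lost when any 1 of 7 treated tumours was left out (up to 0.0835). These 7 included tumours of the other doses, which share the estimate of the spread. The LRP5 call at 100 mg/kg was lost without any 1 of the 3 tumours of that dose (up to 0.0733).

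No member differed between any 2 doses at a limma adjusted p under 0.05. Unadjusted p-values were under 0.05 for 5 of the 24 tested members between 87.5 and 75 mg/kg, 4 between 100 and 75 mg/kg and 7 between 100 and 87.5 mg/kg. The shares of all genes called were 0%, 0.667% and 0.78%. Between 100 and 87.5 mg/kg the log2 difference was 0.81 for AXIN2 (SE 0.23, adjusted p = 0.132), -1.04 for DKK1 (SE 0.31, 0.144), 0.72 for WNT4 (SE 0.19, 0.106) and -0.59 for FZD5 (SE 0.13, 0.0702). FZD2 differed by 0.73 between 87.5 and 75 mg/kg (SE 0.19, adjusted p = 0.377). A difference passing at 1 dose and not at another is therefore not shown to differ between doses.

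Components of the pathway outside the members moved in both directions. Of 71 on the array, 53 were tested and 16 passed between treated and control tumours, 8 higher and 8 lower, which is 30.2% against 18.8% of all genes. Their median log2 difference was -0.17, against 0.02 over all genes. The strongest was DAAM2, a formin-family protein linked to Dishevelled, at 4.79 and 5.40 in controls and 8.51 to 10.05 in treated tumours. It was detected in no control and in 10 of 10 treated tumours, at least 9.51-fold higher (limma adjusted p = 6.94e-06). WLS, which carries Wnt ligands to the cell surface, rose from 11.41 and 11.49 to between 12.19 and 13.02, a log2 difference of 1.2 (SE 0.14, adjusted p = 0.000186). PYGO1, a nuclear co-factor of beta-catenin, rose by 1.14 (adjusted p = 0.00113), CELSR3, an atypical cadherin of planar polarity, by 0.77 (0.00164), and GPC3, a glypican not detected in either control, was at least 2.56-fold higher (0.00131). FRZB, a secreted frizzled-related protein outside the numbered SFRP symbols, was picked after its values were seen. It was detected in 1 control and all 10 treated tumours, at 5.92 and 6.82 in controls and 6.92 to 7.61 in treated tumours, a log2 difference of 0.92 (SE 0.19, adjusted p = 0.00615; 0.127 without control replicate 1).

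Lower were PRICKLE1, a planar polarity protein, from 8.83 and 9.45 to between 6.2 and 7.68 (log2 difference -2.12, SE 0.25, limma adjusted p = 0.000218), and CXXC5, an inhibitor of Dishevelled (-1.41, 0.00352). BCL9L, a beta-catenin co-activator (-0.74, 0.00604), and ROR1, a receptor for WNT5A (-1.42, 0.00684), were lower too. KREMEN2, a receptor for Dickkopf proteins, was detected in both controls, in 2 of 3 tumours at 87.5 mg/kg and in none at 75 or 100 mg/kg, where it was at least 1.7-fold and at least 1.77-fold lower (adjusted p over the mean of the doses 0.0137). CTNNB1, which encodes beta-catenin itself, had a log2 difference of -0.74 (adjusted p = 0.161). Without control replicate 1 the adjusted p was 0.0678 for CXXC5, 0.0532 for BCL9L, 0.0608 for ROR1 and 0.152 for KREMEN2. Without control replicate 2 it was 0.0721 for BCL9L, 0.0752 for ROR1 and 0.0693 for KREMEN2.

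Genes reported elsewhere as Wnt targets also split, with 4 higher and 7 lower of the 33 tested among 45 on the array. That is 33.3% against 18.8% of all genes, with a median log2 difference of -0.05 against 0.02. TNFRSF19, a TNF receptor family member, rose from 9.49 and 9.04 to between 10.85 and 12.11, a log2 difference of 2.08 (SE 0.19, limma adjusted p = 4.54e-05). ASCL2, a transcription factor of intestinal stem cells, rose by 0.95 (0.00666) and SOX9, a progenitor transcription factor, by 1.17 (0.0234). TERT, the telomerase subunit, was higher (0.0156) and was detected in 5 of 10 treated tumours and no control. The TERT fold over the detection limit was 1.15, which is not a strict bound, as undetected treated tumours entered its mean. PLAUR, the urokinase receptor, fell from 10.57 and 10.73 to between 8.20 and 9.70 (-1.54, SE 0.17, adjusted p = 0.000175). MMP7, a matrix protease, fell from 8.12 and 8.14 to between 5.16 and 7.74 (-1.97, SE 0.32, 0.00167) and was detected in 4 of 10 treated tumours. The cyclin CCND1 (-0.64, 0.0104) and the tight junction protein CLDN1 (-0.74, 0.0149) were lower as well. FOSL1, an AP-1 subunit (adjusted p = 0.0103), was detected in both controls and 1 of 10 treated tumours, and was at least 1.37-fold lower at 75 mg/kg and at least 1.42-fold lower at 100 mg/kg, where it was not detected. MYC had a log2 difference of -0.05 (adjusted p = 0.846) and CD44 one of -0.71 (0.0506). Without control replicate 1 the adjusted p was 0.121 for ASCL2, 0.14 for TERT, 0.104 for SOX9, 0.152 for FOSL1, 0.122 for CCND1 and 0.163 for CLDN1. Without control replicate 2 it was 0.0912 for TERT, 0.19 for SOX9, 0.0612 for CCND1 and 0.0667 for CLDN1.

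**Figure D5:**
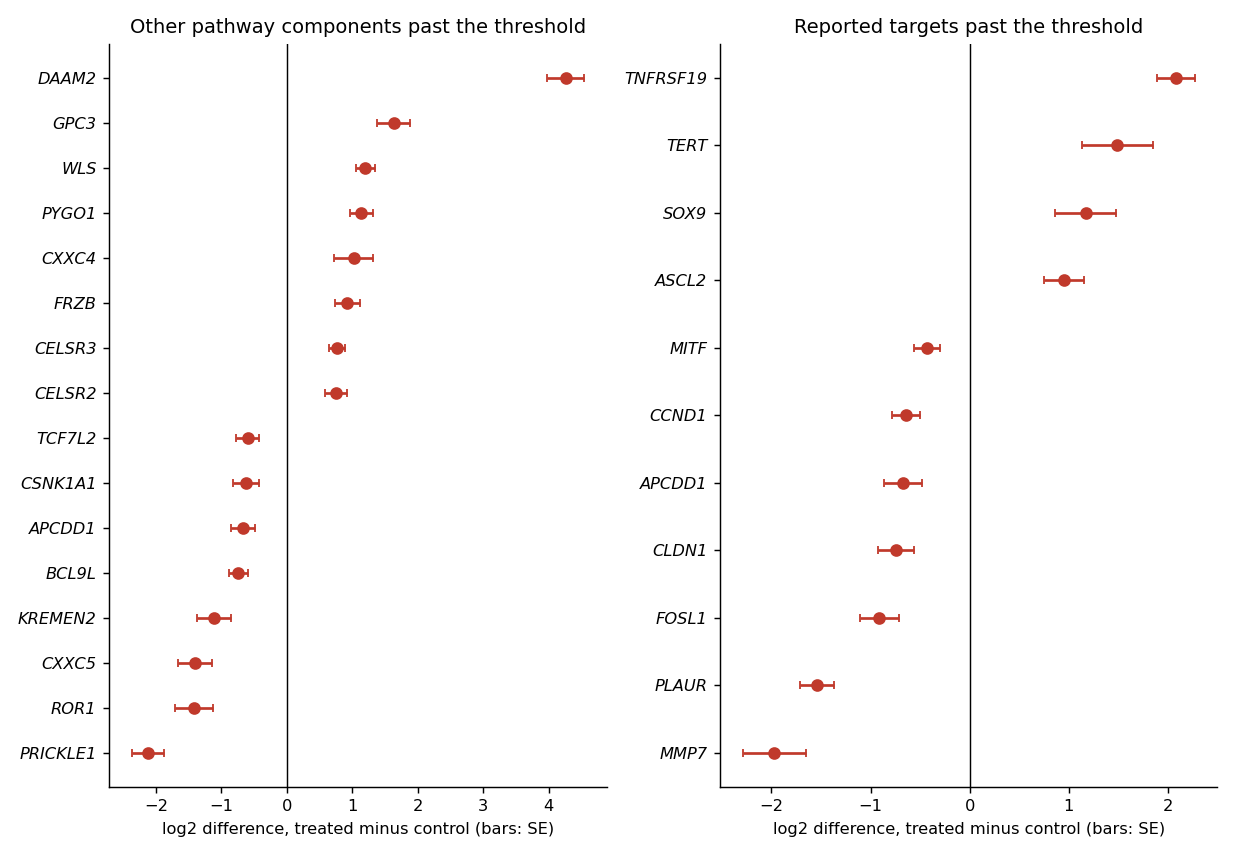
Log2 differences, mean of the 3 ceritinib doses minus control, for the pathway components and reported targets past the threshold. Points are limma estimates and bars are 1 standard error. Only genes with an adjusted p under 0.05 are shown, and tested genes that did not pass are left out. DAAM2 at 4.26 and PRICKLE1 at -2.12 mark the ends of the components.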

How the data were processed

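Biotin-labelled cRNA from 12 H3122 xenograft tumours was hybridised to Illumina expression bead arrays, per the labels' protocols. The authors deposited 1 linear signal intensity per probe and tumour, without normalization as far as the values show, and the deposited detection p-value beside each, per the file headers. The sources used here name no scanner software and no slides. The value table and the text table held the same signals in all 47323 row positions, but their probe IDs matched in 1, and the value table's IDs were used. GEO's platform annotation gave 30113 probes 1 gene symbol, 8 several and 17202 none, and 30074 were matched by Entrez ID.

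Signals were background-corrected and quantile-normalized with limma's neqc (limma 3.58.1, R 4.3.3, offset 16, with the negative controls' level worked out from the detection p-values). The filter asked for detection at p under 0.01 on 2 arrays or more and left 20889 probes, and each gene took its probe with the highest mean (12300 genes). One limma model with 4 groups gave the mean of the 3 doses against control, each dose against control and the 3 dose pairs, with Benjamini-Hochberg adjustment over all genes and a threshold of 0.05. Where a group was not detected at all, the fold is a bound: the bright group's mean against the lowest detected signal or the probe's own, whichever was higher, per array. Undetected tumours of the bright group entered its mean with their own signals, and the fold is then not a strict bound. On simulated data with 200 of 12300 genes changed between treated and control tumours, the fit recovered 73% of log2 changes of 1 and 99% of changes of 2, with 3.91% of calls false. Noise was drawn there for each gene and tumour independently, and the real data called 2318 genes. These rates therefore need not hold for the real data. The small number of arrays, 2 of them controls, limits the precision.

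Every member was accounted for. Values per tumour are given for members past the threshold in any comparison, for members detected in both controls and no treated tumour or in at least 3 treated tumours and no control, and for the 6 brightest; of the components and targets, up to 5 higher and 5 lower genes with the smallest p are named, and CTNNB1, FRZB, MYC and CD44 were added after their values were seen. The members and lists were chosen with earlier results of these data known. The alternatives changed the background correction, the scaling, the offset, the filter, the choice of probe, how the spread was modelled, whether arrays were weighted, which tumours were fitted, the replicate block and the fold asked for, and left out each tumour in turn.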

Additional observations from a re-analysis of the deposited data

Results flagged for a closer look

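LGR6 in replicate 4 at 75 mg/kg had a log2 signal of 6.32, while the other 3 tumours of that dose lay between 5.88 and 5.93. The gap was 0.906 of the group's range, past the critical value for 4 samples. This was 1 of 24 members tested in that way, and chance alone marks about 1 group in 20. LGR6 was detected in 4 of the 12 tumours.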

How the results depend on the processing

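The 2 controls limited every comparison with them. Leaving out each tumour in turn gave 3 to 8 members called over the mean of the doses (7 with all tumours; 3 without control replicate 1 and 4 without control replicate 2), 2 to 7 at 75 mg/kg (6), 1 to 4 at 87.5 mg/kg (3), 5 to 12 at 100 mg/kg (11), 6 to 18 components (16) and 3 to 15 targets (11). Without control replicate 1 the counts were 2 at 75, 2 at 87.5 and 5 at 100 mg/kg, 6 components and 3 targets; without control replicate 2 they were 4, 1, 7, 8 and 5. At 100 mg/kg 7 were called without replicate 2 of that dose. AXIN2 and DKK1 passed over the mean of the doses under every alternative run. WNT7B passed in 20 refits but missed the 2-fold limit, and it left the test without either control and when detection on 6 arrays was asked for. Asking also for a change over 2-fold left 2 members over the mean, 3 at 75 mg/kg, 5 at 100 mg/kg, 9 components and 5 targets. Unnormalized log2 signals gave 5 members at 87.5 mg/kg and 27 components, 6 higher and 21 lower. A fit of only the groups compared gave 1 member at 87.5 mg/kg and 1 between 100 and 75 mg/kg, and array weights gave 3 between 100 and 87.5 mg/kg. With arrays scaled to 1 median, 2 members were higher and 4 lower, 8 components higher and 15 lower, and 4 targets higher and 11 lower, while the median of all genes lay at -0.11; unnormalized, it lay at -0.16, with 2 members higher and 6 lower and 3 targets higher and 12 lower. The replicate block gave 6 members over the mean, 3 at 75 mg/kg, 3 at 87.5 mg/kg and 9 at 100 mg/kg, 12 components and 8 targets; the ZNRF3 adjusted p over the mean was 0.119 under it. Whether the replicate numbers pair the tumours is not known. Same-numbered tumours of different groups correlated at -0.221 to 0.375 in their deviations, 3 of 15 pairs over 0.1. Other pairs correlated at -0.395 to 0.386, 11 of 38 over 0.1, and 2 of 12 tumours correlated best with their own number. The deviations were taken from the means of small groups, where the 2 controls mirror each other, so these values cannot decide it. Over all genes, array weights called 3085 and the fits without control replicates 1 and 2 called 719 and 1205, against 2318. No value changed sign while called. Of the single-gene values, 2479 kept their side of the threshold, 111 lost a call and 31 gained one. Dim members such as WNT4, WNT5A and WNT7B lie at the detection limit, where only a bound can be had.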

Other observations

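Within the 10 treated tumours, AXIN2 was set against 5 other members, with 100000 resamples and adjustment over the 5 relations. Pearson's r was 0.43 for RNF43 (permutation p = 0.206, adjusted p = 0.515), 0.495 for WNT4 (permutation p = 0.151, adjusted p = 0.515), -0.315 for DKK1 (permutation p = 0.381, adjusted p = 0.594), 0.261 for ZNRF3 (permutation p = 0.475, adjusted p = 0.594) and -0.164 for LEF1 (permutation p = 0.648, adjusted p = 0.648). Spearman's rho was 0.321 for RNF43 (permutation p = 0.368), 0.467 for WNT4 (permutation p = 0.178), -0.43 for DKK1 (permutation p = 0.218), 0.297 for ZNRF3 (permutation p = 0.404) and -0.115 for LEF1 (permutation p = 0.755), with adjusted p-values of 0.505 to 0.755. Without the 2 tumours farthest from the median AXIN2 level, r was 0.0136 for RNF43, 0.262 for WNT4, -0.415 for DKK1, 0.13 for ZNRF3 and 0.572 for LEF1, and with each dose centred it was 0.0468, -0.323, 0.448, -0.664 and -0.139 in that order. No relation passed, and those of WNT4, DKK1 and ZNRF3 turned sign within doses.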
